A study of Mus musculus with 6 samples.

Results

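The genes described here encode 10 mitochondrial enzymes and enzyme subunits that break down leucine, isoleucine and valine, the branched-chain amino acids. They were chosen by name for their place in the pathway, with earlier results of these data known, and the rule itself uses no measured value: Bcat2, Bckdha, Bckdhb, Dbt, Ivd, Mccc1, Mccc2, Acadsb, Hibch and Aldh6a1. These are 10 of the 54532 genes in the deposited tables, and 10 of 10 passed the filter on low counts that left 15816 genes to test. RNA was sequenced from kidney tissue of 3 WT and 3 Trpm2-/- C57BL/6J mice, and the study's methods do not say which part of the kidney was used. All 6 had received 18 mg/kg cisplatin, a platinum drug that injures the renal tubule, and were euthanized 72 h later, so each difference is one between genotypes under cisplatin. No untreated kidney was analysed here. The labels give an age of 6 to 8 weeks for both genotypes. The study's methods give an older age range for its cisplatin experiments and male mice. They also say that the Trpm2-/- mice, which came from another source than the WT mice, make a TRPM2 cation channel protein without part of its membrane-spanning region because of a deletion of exons. Mice are numbered 1, 2 and 3 for WT and 1, 2 and 4 for Trpm2-/-.

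Breakdown of the 3 branched-chain amino acids starts with a shared pair of reactions. An aminotransferase moves the amino group to a keto acid acceptor, and the branched-chain keto acid dehydrogenase complex then removes carbon dioxide irreversibly and leaves an acyl group on coenzyme A. From there each amino acid has its own set of mitochondrial enzymes, whose products feed the tricarboxylic acid cycle or ketone body formation. In the kidney, amino acid breakdown is best known in the mitochondria-rich proximal tubule.

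Since most of these genes turned out to be lower together, the sequence ahead of their start sites was read from RefSeq for build GRCm38.p6, where 9 of 10 genes had a promoter entry and Dbt had none. The 9 genes had 12 windows of 300 bases, which run from 250 bases before to 50 bases after a start site. The windows held 37.3% to 66.3% G and C with a median of 53.3%, against 52.7% over 32851 windows of the table, and their median number of CpG dinucleotides was 11.5 against 7. Searched on both strands, the motif CCAAT was in 7 of the 12 windows and in 37.4% of all windows, GGGCGG in 4 of 12 and in 35.7% of all, and AGGTCA in 2 of 12 and in 16.3% of all. CACGTG was in the Mccc2 window alone of the 12 and in 7.15% of all. The search found TCAAGGTCA, TGACGTCA and TATAAA in 0 of the 12 windows, and in 0.423%, 1.79% and 13.6% of all windows. After these matches were seen, windows were counted by how often CCAAT occurs in the 250 bases before the start, with overlapping matches on opposite strands counted separately. At least 3 matches were in 4 of the 12 windows, those of Aldh6a1, Ivd, Mccc1 and Mccc2, and in 2.79% of all windows. A match of letters is a description and no evidence of a bound factor.

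The upstream stretches of 3 genes with repeated CCAAT matches and of Bckdhb, the gene whose genotypes overlapped, are printed here 5′ to 3′ on the strand of the gene. Capitals mark every match to CCAAT, which reads ATTGG where it lies on the opposite strand. They also mark matches to GGGCGG, which there reads CCGCCC. The single AGGTCA of Bckdhb and the single CACGTG of Mccc2 are in capitals too. The stretches are those of Mccc1 at chr3:36000679-36000928 (minus strand), Mccc2 at chr13:100015640-100015889 (minus strand), Aldh6a1 at chr12:84451025-84451274 (minus strand) and Bckdhb at chr9:83924887-83925136 (plus strand). The first of these lies in part over an exon of the noncoding gene Mccc1os, and the last in part over an exon of Gm36278.
Mccc1: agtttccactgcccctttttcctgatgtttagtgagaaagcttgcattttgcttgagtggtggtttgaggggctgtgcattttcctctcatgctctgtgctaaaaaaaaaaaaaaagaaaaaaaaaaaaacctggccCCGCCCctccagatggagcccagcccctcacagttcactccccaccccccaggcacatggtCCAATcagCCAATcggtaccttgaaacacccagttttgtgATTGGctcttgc
Mccc2: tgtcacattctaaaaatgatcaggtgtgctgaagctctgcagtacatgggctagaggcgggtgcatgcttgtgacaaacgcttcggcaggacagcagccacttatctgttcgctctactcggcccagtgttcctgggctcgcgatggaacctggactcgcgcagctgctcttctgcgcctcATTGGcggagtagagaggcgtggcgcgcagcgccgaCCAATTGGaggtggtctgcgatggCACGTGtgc
Aldh6a1: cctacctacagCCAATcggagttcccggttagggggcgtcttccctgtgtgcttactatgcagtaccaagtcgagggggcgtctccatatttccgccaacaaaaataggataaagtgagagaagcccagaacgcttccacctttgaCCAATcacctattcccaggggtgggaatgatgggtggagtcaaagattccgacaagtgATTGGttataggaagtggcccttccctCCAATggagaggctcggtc
Bckdhb: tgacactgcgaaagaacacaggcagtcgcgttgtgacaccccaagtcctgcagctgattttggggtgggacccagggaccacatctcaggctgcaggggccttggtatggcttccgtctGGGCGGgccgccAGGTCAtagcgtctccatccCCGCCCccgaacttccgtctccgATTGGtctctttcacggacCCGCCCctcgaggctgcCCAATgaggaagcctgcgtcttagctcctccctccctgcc

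Libraries held 14053307 to 17150089 counts on genes, and a count of 3, the smallest level set as detectable, was 0.175 to 0.213 CPM (counts scaled to a library size that TMM normalization sets). Every member was far above that level in every mouse. Genes of the mitochondrial genome took 4.43% to 4.72% of counts in WT libraries and 7.91% to 11.04% in Trpm2-/- libraries. Trpm2 had 5, 5 and 27 counts in WT mice 1, 2 and 3 and 10, 16 and 20 counts in Trpm2-/- mice 1, 2 and 4. The exons that remain in the deleted allele are counted too, so these numbers do not check the genotype labels. Trpm2-/- mouse 4 stood apart from the other 2 Trpm2-/- mice in glomerular and vessel genes, with a summed level of 385 CPM over 4 podocyte markers against 97.9 and 114 CPM, and of 142 CPM over 4 endothelial markers against 33.0 and 35.6 CPM. Labels do not say more about how these mice were kept or paired, and the p-values measure the spread between these mice only.

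Transcripts of branched-chain amino acid breakdown were lower in Trpm2-/- than in WT kidneys under cisplatin. Of the 10 genes, 9 were lower by the quasi-likelihood test of edgeR (Benjamini-Hochberg adjusted p under 0.05), where 7.28% of all genes tested were lower. None was higher, with a count of 0 at an unadjusted p under 0.05 too and 0 in DESeq2, limma-voom and limma on FPKM, where 4.74% of all genes tested were higher in edgeR. Bckdhb, which encodes one subunit of the keto acid dehydrogenase, was the member that did not pass. The 10 log2 fold changes ran from -1.53 for Bckdha to -0.68 for Acadsb, with a median of -0.94 against 0.02 over all genes tested. At the study's threshold, a log2 fold change below -1 with a p under 0.05, 5 members were lower (Bckdha, Ivd, Mccc1, Mccc2 and Hibch), against 4.10% of all genes tested. For 9 of 10 members every Trpm2-/- mouse was below every WT mouse, which held for 16.8% of all genes tested. Hibch, at -1.01, was the member just inside the fold limit, and Bcat2, at -0.87, the member just outside it.

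Summed over the 10 genes, the level was 1315, 1496 and 1586 CPM in WT mice 1, 2 and 3, and 798, 738 and 746 CPM in Trpm2-/- mice 1, 2 and 4. The sums did not overlap, and the Trpm2-/- mean of 760.4 ± 32.4 CPM (SD, n = 3) was 0.519 of the WT mean of 1466 ± 138 CPM (SD, n = 3). Aldh6a1 and Ivd made up most of these sums. Because kidney tissue was sequenced in bulk, fewer cells of a type and less RNA per cell cannot be told apart in any of these values. Nor can a different share of kidney regions in a sample be told apart from them.

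**Figure D1:**
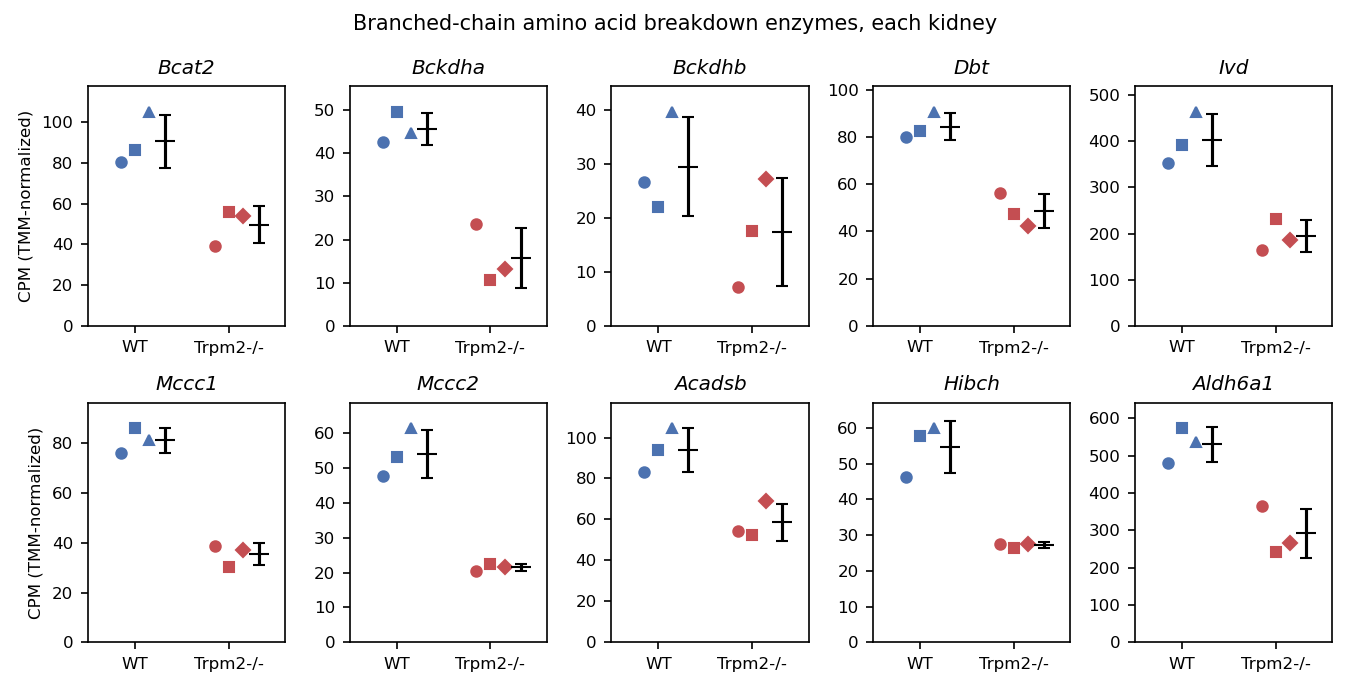
Level of each of the 10 genes in CPM (vertical axes, starting at 0) by genotype, with 1 point per mouse (circle for mouse 1, square for mouse 2, triangle for WT mouse 3, diamond for Trpm2-/- mouse 4) and the mean ± SD of 3 mice at its right. The genotypes are separated for 9 genes and overlap for Bckdhb, where the Trpm2-/- values run from 7.22 to 27.3 CPM and the WT values from 22.0 to 39.6 CPM.

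Bcat2 encodes the mitochondrial aminotransferase that takes the amino group from all 3 amino acids. It lies on the plus strand of GRCm38 chromosome 7, from 45570153 to 45589711. Its level was 80.3, 86.6 and 105 CPM in WT mice 1, 2 and 3 and 39.2, 56.0 and 54.0 CPM in Trpm2-/- mice 1, 2 and 4. The highest Trpm2-/- value stayed well under the lowest WT value. The fitted log2 fold change was -0.87 (SE 0.171, edgeR adjusted p = 0.0126), and the mean was 54.8% of the WT mean. The antisense noncoding gene 0610005C13Rik overlaps 15.95% of the exon bases of Bcat2, and the sources do not state whether counting used strand. That gene fell too, from 1622, 1880 and 2169 counts in WT mice to 330, 409 and 522 counts in Trpm2-/- mice (log2 fold change -2.13, edgeR adjusted p = 0.00126). Without strand, reads in the shared bases cannot be told apart, and their part in the Bcat2 difference was not tested.

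The keto acid dehydrogenase complex is built from a thiamine-dependent decarboxylase of alpha and beta subunits (Bckdha and Bckdhb), a lipoyl transacylase core (Dbt) and the shared lipoamide dehydrogenase (Dld). Bckdha, on the minus strand of chromosome 7 from 25629946 to 25658981, showed the largest log2 fold change among the 10 genes. Its level was 42.5, 49.6 and 44.6 CPM in the WT mice and 23.6, 10.6 and 13.1 CPM in the Trpm2-/- mice. Trpm2-/- mouse 1 kept the most Bckdha of its group but was still far below the WT mice. The log2 fold change was -1.53 (SE 0.262, edgeR adjusted p = 0.00699), with a mean at 34.7% of WT. The gene B3gnt8 on the opposite strand overlaps 61.7% of the exon bases of Bckdha. B3gnt8 had 122, 89 and 65 counts in WT mice and 68, 64 and 76 counts in Trpm2-/- mice (log2 fold change -0.38, edgeR adjusted p = 0.435), against 689, 772 and 727 counts and 386, 155 and 210 counts for Bckdha, so Bckdha is reported with that uncertainty.

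Bckdhb, on the plus strand of chromosome 9 from 83925145 to 84124240, did not follow its partner mouse by mouse. WT mice had 26.7, 22.0 and 39.6 CPM, and Trpm2-/- mice had 7.22, 17.6 and 27.3 CPM. The genotypes overlapped, since Trpm2-/- mouse 4 exceeded WT mice 1 and 2, and the log2 fold change of -0.76 (SE 0.400) did not pass in edgeR (adjusted p = 0.249). Among the Trpm2-/- mice, mouse 1 had the highest Bckdha and the lowest Bckdhb. Its 118 counts of Bckdhb compare with 258 and 438 counts in the other 2 mice. Leaving out Trpm2-/- mouse 1 brought the log2 fold change of Bckdhb to -0.39, and leaving out Trpm2-/- mouse 4 to -1.24.

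Dbt, on the plus strand of chromosome 3 from 116513070 to 116549981, separated the genotypes again. It was at 79.9, 82.2 and 90.6 CPM in WT mice and at 56.2, 47.2 and 42.4 CPM in Trpm2-/- mice. The spread within each genotype was small beside this gap (log2 fold change -0.79, SE 0.141, edgeR adjusted p = 0.00787). Dld, whose product also serves the pyruvate and oxoglutarate dehydrogenases, fell by a log2 fold change of -0.57 (SE 0.144, edgeR adjusted p = 0.0324).

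To compare partners of a complex within a mouse, FPKM values (counts scaled to gene length and to a library total) were divided. The Bckdha to Bckdhb ratio was 1.51, 2.15 and 1.07 in WT mice and 3.11, 0.571 and 0.456 in Trpm2-/- mice. It was both highest and lowest among Trpm2-/- mice, and the genotypes did not separate (log2 difference -0.70, two-sided exact permutation p = 0.5, 0.667 after adjustment over 4 ratios). Without Trpm2-/- mouse 1 the difference was -1.57 and without Trpm2-/- mouse 4 it was -0.18. For Bckdha to Dbt, the ratio was 0.938, 1.06 and 0.868 in WT mice and 0.741, 0.395 and 0.544 in Trpm2-/- mice. These did not overlap, which gives an exact permutation p of 0.1, the smallest this test can give with 3 against 3 mice, and 0.4 after adjustment.

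Leucine's own branch is represented by Ivd, the isovaleryl-CoA dehydrogenase, and by the biotin-containing alpha subunit (Mccc1) and the beta subunit (Mccc2) of methylcrotonyl-CoA carboxylase. All 3 genes were lower. Ivd (chromosome 2, plus strand, 118861954 to 118882909) was at 352, 392 and 464 CPM in WT mice and at 164, 232 and 187 CPM in Trpm2-/- mice. Each Trpm2-/- value was well under each WT value, with a log2 fold change of -1.05 (SE 0.173, edgeR adjusted p = 0.00586).

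Mccc1 (chromosome 3, minus strand, 35959312 to 36000678) had 76.0, 85.8 and 81.0 CPM in WT mice and 38.6, 30.3 and 37.0 CPM in Trpm2-/- mice. Mccc2 (chromosome 13, minus strand, 99948530 to 100015639) had 47.6, 52.9 and 61.3 CPM and 20.5, 22.5 and 21.6 CPM. Both subunits were under the lowest WT mouse by a wide margin in the Trpm2-/- mice, and Mccc2 was there at a narrow range of levels. The log2 fold changes were -1.20 for Mccc1 (SE 0.137, edgeR adjusted p = 0.00161) and -1.32 for Mccc2 (SE 0.139, edgeR adjusted p = 0.00131), the smallest p-values of the 10 genes. The FPKM ratio of Mccc1 to Mccc2 was 0.408, 0.415 and 0.338 in WT mice and 0.482, 0.344 and 0.438 in Trpm2-/- mice. These overlapped (log2 difference 0.11, exact permutation p = 0.5), which at this n does not show that the ratio is equal.

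Acadsb, the short and branched-chain acyl-CoA dehydrogenase of isoleucine breakdown (chromosome 7, plus strand, 131410601 to 131448944), had the smallest change. It was at 83.3, 94.0 and 105 CPM in WT mice and at 54.4, 52.4 and 69.1 CPM in Trpm2-/- mice. The groups did not overlap, and the nearest pair was Trpm2-/- mouse 4 and WT mouse 1. The log2 fold change was -0.68 (SE 0.152, edgeR adjusted p = 0.0206). This call was lost without WT mouse 2 (edgeR adjusted p = 0.0816), WT mouse 3 (0.109) or Trpm2-/- mouse 1 (0.0574).

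Valine's branch is represented by Hibch, a hydrolase that frees hydroxyisobutyrate from coenzyme A, and Aldh6a1, the methylmalonate semialdehyde dehydrogenase at its end. Hibch (chromosome 1, plus strand, 52844929 to 52920986) was at 46.4, 57.8 and 59.9 CPM in WT mice and at 27.7, 26.4 and 27.6 CPM in Trpm2-/- mice. The Trpm2-/- values lay close together, at 49.8% of the WT mean (log2 fold change -1.01, SE 0.138, edgeR adjusted p = 0.00332). Aldh6a1 (chromosome 12, minus strand, 84430717 to 84451004) was at 480, 573 and 536 CPM in WT mice and at 366, 243 and 267 CPM in Trpm2-/- mice. Trpm2-/- mouse 1 kept the highest level of its group, still under every WT mouse. The log2 fold change was -0.86 (SE 0.179, edgeR adjusted p = 0.0157). Bbof1 on the opposite strand shares 18.6% of the exon bases of Aldh6a1, with 56 to 95 counts in WT mice and 59 to 111 counts in Trpm2-/- mice. The Aldh6a1 call was lost without WT mouse 2 (edgeR adjusted p = 0.0741) or WT mouse 3 (0.0660), and that of Bcat2 without WT mouse 3 (0.0640).

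Compared per length, as FPKM over the exons that the table counts, the highest WT levels were those of Aldh6a1 at 80.1 ± 6.99 and Ivd at 64.0 ± 8.80 (SD, n = 3). Their WT ranges overlapped, and both stood clear of the next gene, Dbt at 22.0. Dbt, Bckdha at 20.99, Bcat2 at 20.3, Mccc2 at 16.8, Bckdhb at 14.3 and Acadsb at 11.4 formed a run in which each overlapped its neighbour. Hibch at 7.90 was clear of Acadsb and overlapped Mccc1 at 6.46. In Trpm2-/- mice Aldh6a1 at 44.5 and Ivd at 31.1 stayed first, and Mccc1 at 2.84 last. Bckdha, at 7.32, moved from the fourth to the sixth place, with a range that overlapped those of its neighbours Bckdhb and Acadsb. The length in the table is the union of all exons of a gene. With the length of the principal transcript, an alternative chosen after the data were seen, Mccc1 came to 28.8 in WT mice and Hibch to 26.1. These were next after Bcat2 at 44.8, while Aldh6a1 and Ivd stayed first and second. By that length Bckdha, at 7.32, was last in Trpm2-/- mice.

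The rest of the pathway was covered by a list of 25 genes, of which 25 were tested. Of these, 18 were lower and 0 were higher at an adjusted p under 0.05 in edgeR. At an unadjusted p under 0.05, 1 was higher, and none was higher in DESeq2, limma-voom or limma on FPKM. The median log2 fold change was -0.72. With the replicate number as a block 11 were lower, as also without WT mouse 2 and without WT mouse 3. Over all genes tested, 661, 521 and 470 were lower in these fits, against 1152 in the main fit.

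Among the 17 other enzymes, 15 were lower, and these covered every branch. Acat1, which splits acetoacetyl-CoA and its methylated form at the end of leucine and isoleucine breakdown, was at 308, 355 and 369 CPM in WT mice and at 117, 107 and 138 CPM in Trpm2-/- mice. Its log2 fold change of -1.51 (SE 0.149, edgeR adjusted p = 0.00126) was the largest of the list. The propionyl-CoA route, which carries carbon from valine and isoleucine to succinyl-CoA, was lower at Pcca (-1.42), Pccb (-1.04), Mcee (-0.70), Mmut (-0.98) and Mmab (-0.82). Pcca and Pccb encode the alpha and beta subunits of propionyl-CoA carboxylase, Mcee the epimerase and Mmut (Mut in the tables) the cobalamin-dependent mutase that follow, and Mmab an enzyme that makes its cofactor.

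Shared hydratase and dehydrogenase steps fell as well, with log2 fold changes of -1.02 for the enoyl-CoA hydratase Echs1, -1.16 for Hadh and -0.73 for Hsd17b10. Auh (-0.63) of leucine's branch and Acad8 (-0.65) and Hibadh (-0.89) of valine's branch were lower too. Abat, the aminobutyrate transaminase that also acts in valine and thymine catabolism, was lower by a log2 fold change of -1.48 (SE 0.177, edgeR adjusted p = 0.00191).

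Only Mmaa and Bcat1 of these 17 did not pass in edgeR. Mmaa, a chaperone of the mutase, had a log2 fold change of -0.39 (edgeR adjusted p = 0.265). Bcat1, the cytosolic aminotransferase, was at 46.8, 12.1 and 13.5 CPM in WT mice and at 11.2, 77.9 and 19.2 CPM in Trpm2-/- mice. One mouse of each genotype was far above the others, and the log2 fold change of 0.58 had a SE of 0.699 (edgeR adjusted p = 0.636).

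Of 8 genes for transport and control, 3 were lower, and all 3 act on the control side. Klf15, a transcription factor known to raise genes of amino acid breakdown, was at 73.4, 85.1 and 90.0 CPM in WT mice and at 31.3, 36.7 and 27.2 CPM in Trpm2-/- mice. Its genotypes were far apart (log2 fold change -1.39, SE 0.151, edgeR adjusted p = 0.00150). Bckdk, the kinase that switches the dehydrogenase complex off, was at 69.3, 70.6 and 72.8 CPM in WT mice and at 40.5, 45.8 and 43.2 CPM in Trpm2-/- mice (log2 fold change -0.72, SE 0.118, edgeR adjusted p = 0.00594). Ppm1k, the phosphatase that switches it on, was at 20.0, 19.3 and 24.8 CPM and at 10.2, 12.6 and 15.8 CPM (log2 fold change -0.73, SE 0.201, edgeR adjusted p = 0.0444).

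Kinase and phosphatase transcripts were thus both lower. Their FPKM ratio was 4.78 to 5.97 in WT mice and 4.47 to 6.45 in Trpm2-/- mice (log2 difference 0.03, exact permutation p = 0.9).

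No transporter passed in edgeR. The log2 fold changes were -0.25 for Slc6a19, the apical neutral amino acid carrier of the proximal tubule, and -0.23 for Slc3a2, the heavy chain of the leucine exchangers. They were 0.51 for Slc7a8 and 0.57 for Slc7a5, both light chains of those exchangers, and 0.19 for Slc25a44, the mitochondrial branched-chain amino acid carrier. The adjusted p was smallest for Slc7a5, at 0.107 in edgeR (unadjusted p = 0.0218), and its level was 7.61 to 9.81 CPM in WT mice and 10.99 to 15.5 CPM in Trpm2-/- mice. For Slc6a19 the genotypes overlapped, at 111 to 162 CPM in WT mice and 93.5 to 136 CPM in Trpm2-/- mice.

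**Figure D2:**
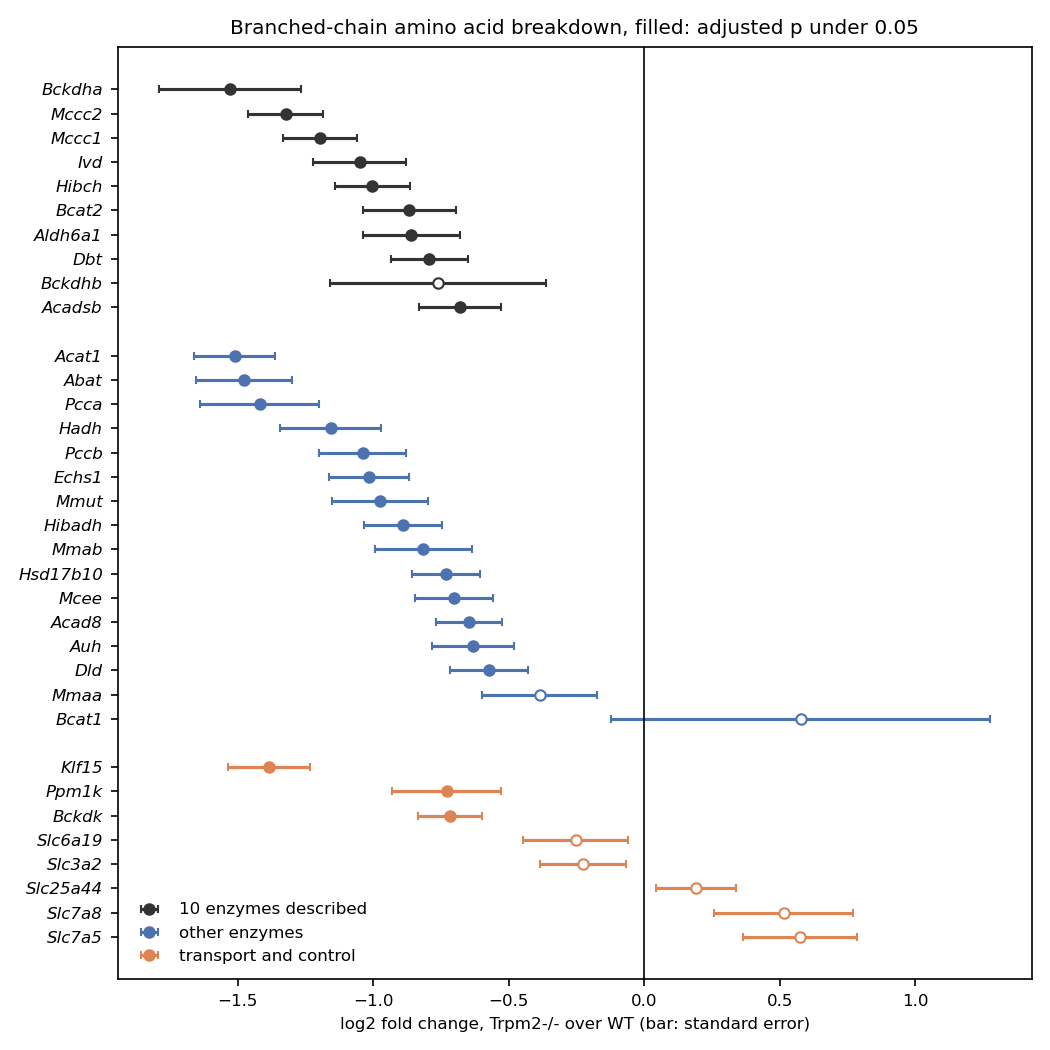
Fitted log2 fold change, Trpm2-/- against WT, of the 10 enzymes described and of other genes of the pathway (horizontal axis, bars for the standard error, filled where the adjusted p was under 0.05). All 10 enzymes lie left of 0, between -1.53 and -0.68, and the genes right of 0 are Bcat1, Slc7a5, Slc7a8 and Slc25a44.

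Levels of cell type markers moved with these values. Of 12 proximal tubule markers, 11 were lower in edgeR, with a median log2 fold change of -1.57. Their summed level was 6942 ± 844 CPM in WT mice and 2747 ± 270 CPM in Trpm2-/- mice (SD, n = 3), a ratio of 0.396 against 0.519 for the 10 breakdown genes. Slc27a2 made up the largest part of this sum, with means of 2597 CPM in WT mice and 1329 CPM in Trpm2-/- mice. Its log2 fold change was -0.97, smaller in size than the median of the list. No marker of the list was at 0. The smallest p-values were those of Fbp1 (-1.98), a gluconeogenic enzyme, of Slc34a1 (-2.73), the sodium phosphate carrier, and of Cubn (-1.39), an endocytic receptor.

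Counted per 1000 counts of these markers, Bcat2, Dbt, Ivd, Acadsb, Hibch and Aldh6a1 were higher in every Trpm2-/- mouse than in every WT mouse, and the other 4 overlapped. That is 6 of 10 genes, where 85.6% of all genes tested had the same pattern. The log2 differences of the 6 were between 0.28 for Ivd and 0.65 for Acadsb, with an exact permutation p of 0.1, the smallest possible, and 0.167 after adjustment over 10 genes. Those of Mccc1 and Mccc2 were 0.13 and 0.02, and that of Bckdha was -0.28. With a median log2 fold change of -0.94, the breakdown genes lay between the markers, at -1.57, and all genes tested, at 0.02. The part of the loss of tubule transcripts in the lower levels of these genes was not tested.

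Thick ascending limb markers differed strongly between mice of 1 genotype, and for some of them the order of the mice was like that of Bckdhb, which was noticed after the values were seen. Summed over 4 markers, the level was 1179, 716 and 2163 CPM in WT mice 1, 2 and 3 and 196, 429 and 835 CPM in Trpm2-/- mice 1, 2 and 4, and 1 of the 4 markers was lower in edgeR, the secreted protein gene Umod (-1.97). Among them Kcnj1, a potassium channel of that segment, was at 87.5, 58.9 and 125 CPM in WT mice and at 30.3, 54.0 and 91.1 CPM in Trpm2-/- mice. The order of the 6 mice, from WT mouse 3 down to Trpm2-/- mouse 1, was the same for Kcnj1 and Bckdhb. Slc12a1, the sodium potassium chloride carrier of that segment, gave the same order but for WT mouse 2 and Trpm2-/- mouse 2, which changed places (120 and 208 CPM). Umod and Cldn16, the other 2 markers, gave other orders, in which no Trpm2-/- mouse was above a WT mouse. Umod was at 523 to 1514 CPM in WT mice and at 128 to 432 CPM in Trpm2-/- mice, and Cldn16, a tight junction gene, at 10.24 to 16.9 CPM and at 5.33 to 10.21 CPM. The summed level also put Trpm2-/- mouse 4 below WT mouse 1, which Bckdhb did not. How much of the Bckdhb spread goes with the amount of this segment in a sample was not tested.

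**Figure D3:**
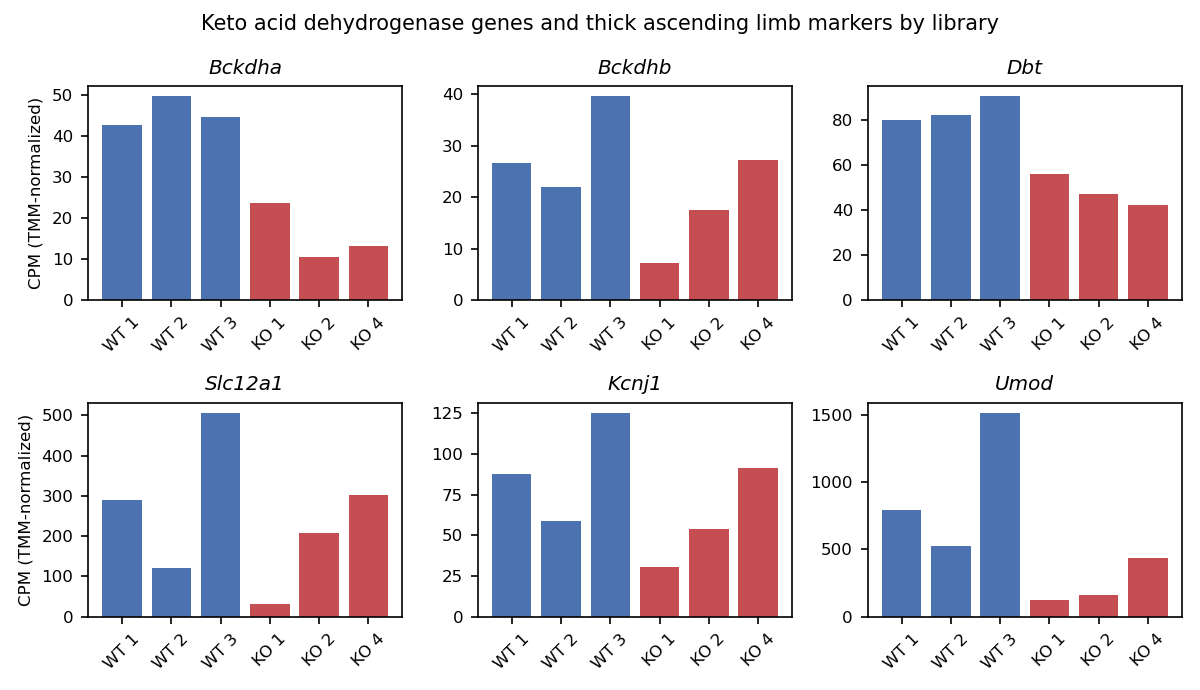
Level in CPM (bars from 0) of 3 keto acid dehydrogenase genes (top) and 3 thick ascending limb markers (bottom) in each mouse, with WT in blue and Trpm2-/- (KO) in red. Bckdha and Dbt are lower in the 3 Trpm2-/- mice. Bckdhb is lowest in Trpm2-/- mouse 1 at 7.22 CPM and reaches 27.3 CPM in Trpm2-/- mouse 4, as Kcnj1 does with 30.3 and 91.1 CPM. For Umod, and for Cldn16, which is not drawn, no Trpm2-/- mouse is above a WT mouse.

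Other kidney markers gave fewer calls. Collecting duct markers were lower for 2 of 5, the water channels Aqp2 (-1.02) and Aqp3 (-0.47). Podocyte, endothelial and fibroblast lists had 0 of 4 called each in edgeR, DESeq2 and limma-voom, with 2 podocyte genes higher and none of the others changed at an unadjusted p under 0.05. Distal convoluted tubule markers had 0 of 2 called, also unadjusted. Of 5 immune cell markers tested, C1qa was lower in edgeR (-2.03), with genotypes that overlapped, and limma-voom and limma on FPKM called 0. Ptprc was higher in every Trpm2-/- mouse than in every WT mouse and did not pass (0.76, edgeR adjusted p = 0.164). Tubular injury markers were higher for 2 of 5 in edgeR, Sox9 (1.16, edgeR adjusted p = 0.0115) and Krt20 (0.79, edgeR adjusted p = 0.0189), and for 3 of 5 in DESeq2. Havcr1 was higher in every Trpm2-/- mouse than in every WT mouse and did not pass in edgeR (0.51, edgeR adjusted p = 0.0747). The summed level of the injury markers was 3095 ± 288 CPM in WT mice and 4485 ± 554 CPM in Trpm2-/- mice (SD, n = 3).

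Neighbouring mitochondrial pathways also had lower transcripts. Lysine breakdown, which shares the use of coenzyme A esters and a mitochondrial acyl-CoA dehydrogenase, was lower for 5 of 5 genes with a median log2 fold change of -1.44. Gcdh, its glutaryl-CoA dehydrogenase, had -1.43, Aass, which starts the pathway, -1.44 and Aldh7a1 -1.06. The tricarboxylic acid cycle was lower for 12 of 17 genes with a median of -0.66, and Fh1 (-0.94), Idh2 (-1.05) and Sdhb (-0.96) had the smallest p-values. Mitochondrial fatty acid oxidation was lower for 7 of 16 genes with a median of -0.68, led by Acadm (-1.34), Etfa (-1.09) and Acaa2 (-0.99). These are counts of edgeR, and all 17 and all 16 log2 fold changes of these 2 lists were below 0. DESeq2 called 14 genes of the cycle and 10 of fatty acid oxidation lower, and limma-voom 12 and 7. Etfa encodes a subunit of the flavoprotein that takes electrons from Ivd and Acadsb. Etfb, the gene of its partner subunit, did not pass (-1.15, edgeR adjusted p = 0.102), with genotypes that overlapped. Summed levels in Trpm2-/- mice were 0.397 of WT for lysine breakdown, 0.634 for the tricarboxylic acid cycle and 0.626 for fatty acid oxidation, with 0.519 for the 10 branched-chain genes between them. Whether these ratios differ from each other was not tested.

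**Figure D4:**
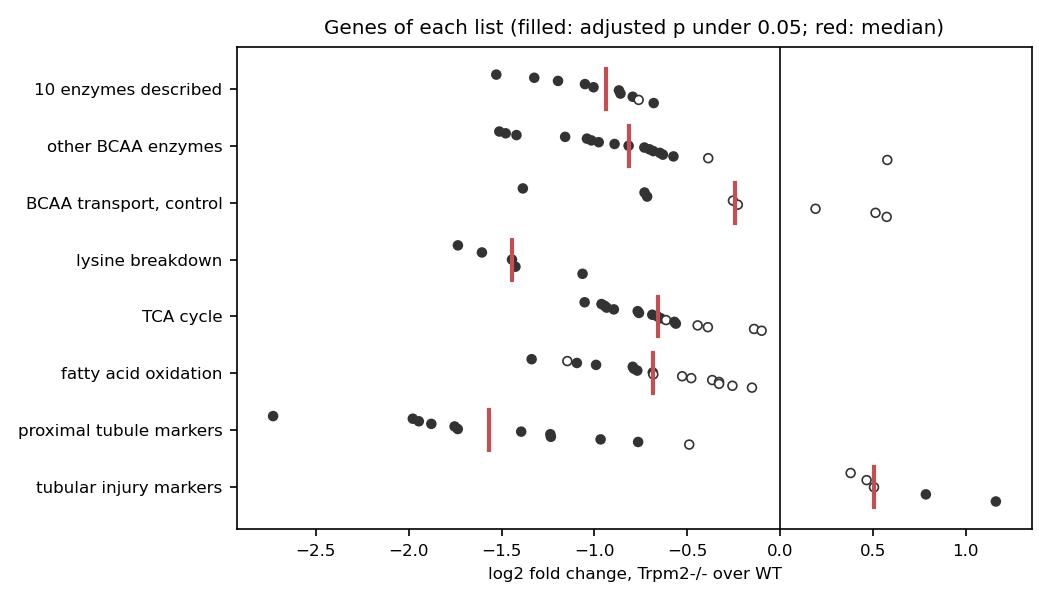
Log2 fold changes, Trpm2-/- against WT, of the single genes of 8 lists (1 point per gene, filled where the adjusted p was under 0.05), with a red line at the median of each list. The 10 enzymes described have a median of -0.94, between -1.57 for proximal tubule markers and -0.66 for the tricarboxylic acid cycle, and injury markers lie above 0.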

How the data were processed

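The authors deposited 2 tables of 54532 genes: raw counts of reads per gene, and FPKM values that they computed from them with a gene length that equals the union of exons in GENCODE M21. Gene positions in the tables equal those of GRCm38, while the submitters' notes name mm9, HISAT2 and StringTie without versions or roles. Strandedness is not given in the sources used here.

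Counts were compared in R 4.3.3 with edgeR 4.0.16 (filterByExpr defaults, TMM, two-sided quasi-likelihood test on genotype, Benjamini-Hochberg over 15816 genes). A standard error is the size of the log2 fold change over the square root of the F value. The fit was checked on counts simulated with the same spread setting for every gene and for both genotypes. It recovered 100 of 100 changes of 4-fold there and 58 of 100 changes of 2-fold. It called 4 other genes there. A change near 2-fold can thus be missed. The spread in these data differs between genes and between genotypes, so these rates need not hold for them. Ratios were tested by two-sided exact permutation. Alternatives used DESeq2 1.42.0, limma 3.58.1 and FPKM with pseudocounts of 1 and 0.1, other filters, other normalizations, a replicate block, and each mouse left out in turn. The members and lists were chosen with earlier results of these data known. Named were all 10 members, pathway genes at an adjusted p under 0.05, up to 3 genes of each other list with the smallest p, and Trpm2. One item that this rule covers is counted in the lists but not reported here by name. Pathway genes that did not pass, genes on the opposite strand, Slc12a1, Slc27a2 and Etfb were taken up after their values were seen. Promoters are from RefSeq.

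Within a genotype, chi-square per degree of freedom between 2 mice was 9.98 to 13.6 for WT and 22.6 to 26.2 for Trpm2-/-, so replicates differed by more than sampling noise.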

Additional observations from a re-analysis of the deposited data

How the results depend on the processing

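Lower members numbered 9 or 10 under the 10 alternatives that kept all 6 mice and used no block, 7 with the replicate block and 6 to 9 with a mouse left out, and all 10 log2 fold changes stayed below 0 in 17 of 17 alternatives. Over all genes, 1152 of 15816 tested were lower in the main fit and 661 of 15816 with the block. With a mouse left out, 470 to 1240 were lower, of 16251 to 16421 tested. The calls of Bckdha, Hibch, Ivd, Mccc1 and Mccc2 held in all 17. At the study's threshold, 5 members were lower in the main fit, 3 with limma on log2(FPKM + 1), and 3 to 6 with a mouse left out (3 without WT mouse 3). The other alternatives that kept all 6 mice gave 4 or 5, with 4 in DESeq2 and in limma-voom. Of the other pathway genes, 11 were lower with the replicate block and 11 to 17 with a mouse left out (11 without WT mouse 2 and without WT mouse 3). Without a filter, 2 were higher (Slc7a8 and Bcat1). Bckdhb passed there as lower (log2 fold change -0.78, SE 0.190, edgeR adjusted p = 0.000962). In the main fit its SE was 0.400 at a similar log2 fold change of -0.76, and its genotypes overlapped. The result for Bckdhb was the same as in the main fit in 16 of 17 alternatives. Relative to the geometric mean of the proximal tubule markers in place of their sum, the log2 differences of all 10 genes moved up by the same amount, since only the divisor changes, from 0.46 to 0.70 for Bcat2 and from -0.28 to -0.04 for Bckdha. The cause of these changes was not tested.

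Only numbers 1 and 2 occur in both genotypes, in different mice. Deviations from the genotype mean correlated at 0.096 and -0.00275 over genes for same-numbered mice. For WT and Trpm2-/- mice of unlike number they correlated at -0.291 to 0.244. With so few mice this cannot show whether any were paired, which the labels do not state. With the replicate block, WT mouse 3 and Trpm2-/- mouse 4 have no partner of their number. That fit therefore compares genotypes within numbers 1 and 2 only. In it the calls of Dbt (edgeR adjusted p = 0.0668) and Aldh6a1 (0.0825) were lost. The smallest exact p for 3 against 3 mice is 0.1, above the threshold.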
